A study of Mus musculus with 12 samples.

Results

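The nuclear genes of the respiratory chain were examined in mouse embryonic stem (ES) cells treated with JQ1. Of the 52550 gene identifiers in each library's table, 94 belonged to protein-coding genes that GENCODE mouse M21 names as Nduf, Sdh, Uqcr, Cyc1, Cox4 to Cox8 or Atp5 genes. They divided into 36 subunits of complex I, 8 complex I assembly genes (Ndufaf1 to Ndufaf8), 4 subunits of complex II, 9 of complex III and 18 of complex IV. Ndufa4 and Ndufa4l2, named for complex I but known as complex IV proteins, were counted apart, and 17 genes carried an Atp5 name, of which Atp5s encodes no subunit of the enzyme. The rule reads names alone.

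The respiratory chain passes electrons to oxygen. Complex I takes them from NADH and complex II from succinate, complex III hands them to cytochrome c, and complex IV reduces oxygen. Complexes I, III and IV pump protons across the inner mitochondrial membrane, and complex V, the ATP synthase, makes ATP as the protons return. Most subunits are encoded in the nucleus, while the core membrane subunits of complexes I, III, IV and V are encoded in mitochondrial DNA. Naive mouse ES cells are known to use both glycolysis and respiration. JQ1 is a small-molecule bromodomain inhibitor.

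RNA sequencing covered 12 libraries in 6 groups of 2. GSK3 knockout ES cells, known as such from the sample titles alone, were kept in serum with leukaemia inhibitory factor (serum/LIF). Unmodified ES cells were kept either in 2iL, a serum-free medium with LIF and inhibitors of MEK and GSK3, or in serum/LIF. Each of these 3 kinds of culture was given 100 nM JQ1 or the solvent DMSO for 60 h. Serum/LIF cells were grown on mitotically inactivated mouse embryonic fibroblasts and split onto gelatin for the experiment, while those in 2iL grew on gelatin alone. The labels give no clone number and no description of the GSK3 lesion. They are also silent on whether the libraries of a group came from different dishes, and the p-values therefore speak of the spread among libraries, which may be technical.

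The libraries held between 17869865 and 48723436 expected counts. The targeted kinase genes were checked first. Gsk3a stood at 24.7 and 23.4 CPM (counts scaled to the normalised library size) in knockout cells with DMSO, against 76.8 and 65.1 CPM in unmodified serum/LIF cells with DMSO. Gsk3b stood at 51.2 and 42.5 CPM in those knockout libraries, against 74.7 and 72.2 CPM. Transcripts of both genes were therefore lower but present in the libraries labelled knockout. The 9 ES cell markers were expressed in every library, Pou5f1 among them. The members had short transcripts, with a median length of 743 bases against 2440 bases for all 16987 genes tested, and the mean fragment length implied by the authors' effective lengths ranged between 286.5 and 319.6 bases over the libraries. Fold changes followed transcript length in several comparisons, so each comparison also gives values for genes of like length.

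No member passed in the same direction in all 3 JQ1 comparisons. Promoters are therefore shown for the 3 members that rose most with JQ1 in knockout cells. Sdha is shown too, added after its values were seen because its promoter held several motif matches. Each window runs 250 bases upstream to 50 bases downstream of the RefSeq gene start in GRCm38.p6 and is written in the direction of transcription. Capitals mark matches on either strand to the core of the site bound by NRF1, with 1 base left free. Other motifs searched were CCGGAAG, an ETS core of the kind bound by GABPA, and CACGTG, the E-box. Neither occurs in these 4 windows.
Cox6b2 promoter, chr7:4753045-4753344, minus strand: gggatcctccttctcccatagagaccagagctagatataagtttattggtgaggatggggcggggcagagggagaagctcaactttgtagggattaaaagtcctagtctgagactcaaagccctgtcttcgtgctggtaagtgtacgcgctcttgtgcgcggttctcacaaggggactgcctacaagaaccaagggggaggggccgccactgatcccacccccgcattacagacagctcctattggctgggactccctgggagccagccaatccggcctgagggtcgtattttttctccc
Ndufv3 promoter, chr17:31519865-31520164, plus strand: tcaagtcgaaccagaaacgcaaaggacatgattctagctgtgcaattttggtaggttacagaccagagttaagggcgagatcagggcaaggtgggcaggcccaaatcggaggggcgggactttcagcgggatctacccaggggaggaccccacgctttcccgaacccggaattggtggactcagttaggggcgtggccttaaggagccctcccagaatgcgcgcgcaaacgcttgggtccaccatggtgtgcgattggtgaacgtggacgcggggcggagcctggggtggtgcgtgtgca
Ndufb10 promoter, chr17:24724374-24724673, minus strand: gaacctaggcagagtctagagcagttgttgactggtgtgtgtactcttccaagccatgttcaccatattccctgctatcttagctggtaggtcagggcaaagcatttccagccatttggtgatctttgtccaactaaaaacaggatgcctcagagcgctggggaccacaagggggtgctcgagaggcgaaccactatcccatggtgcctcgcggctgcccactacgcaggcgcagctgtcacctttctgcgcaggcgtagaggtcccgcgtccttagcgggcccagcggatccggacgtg
Sdha promoter, chr13:74350191-74350490, minus strand: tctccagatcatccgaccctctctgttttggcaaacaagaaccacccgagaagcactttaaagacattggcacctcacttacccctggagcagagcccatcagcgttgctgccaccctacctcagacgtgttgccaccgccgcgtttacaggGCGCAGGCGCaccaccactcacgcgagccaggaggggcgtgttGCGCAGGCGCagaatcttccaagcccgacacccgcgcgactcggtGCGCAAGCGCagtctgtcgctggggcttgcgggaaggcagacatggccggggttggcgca

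The Sdha window held 3 NRF1 matches, at positions -98, -55 and -10 from the gene start. The windows of Cox6b2, Ndufv3 and Ndufb10 held none of the 3 motifs. Windows of Ndufc1, with none of the motifs, and Atp5g3, with 1 NRF1 match and 1 E-box, were read but are not shown. RefSeq windows were matched for 74 of the 94 genes, and 19 of them (25.7%) held the NRF1 motif, against 10.4% of the 11675 other tested genes with a window and 5.19% of all 27025 windows. The ETS motif was in 18 windows (24.3%), against 18.4% of other tested genes and 9.93% of all windows. The E-box was in 5 (6.76%), against 11.5% and 8.09%. Among members that rose with JQ1 in knockout cells 7 of 27 windows (25.9%) held the NRF1 motif, against 12 of 45 (26.7%) among members with no call, so the share with the motif was alike in both. A match is only a run of letters in these windows.

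Levels were compared between genes as TPM (which allows for transcript length), averaged over the 12 libraries. Complex V had the highest median, 334 TPM over its 17 genes, with Atp5b, the catalytic beta subunit, at 2740 TPM and Atp5e, the epsilon subunit, at 5.17 TPM. Complex III followed at a median of 310 TPM, between 89.5 TPM for Uqcrfs1, the Rieske iron-sulphur protein, and 590 TPM for the small subunit Uqcr10. Complex IV had a median of 158 TPM, with Cox6a1 highest at 1220 TPM and the muscle isoform Cox8b at 0. Complex I had a median of 104 TPM, between 25.2 TPM for Ndufa11 and 549 TPM for Ndufa7. The 4 complex II genes lay between 47.7 TPM for the membrane anchor Sdhc and 109 TPM for the flavoprotein Sdha. Complex I assembly genes were lowest, at a median of 17.4 TPM.

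**Figure D1:**
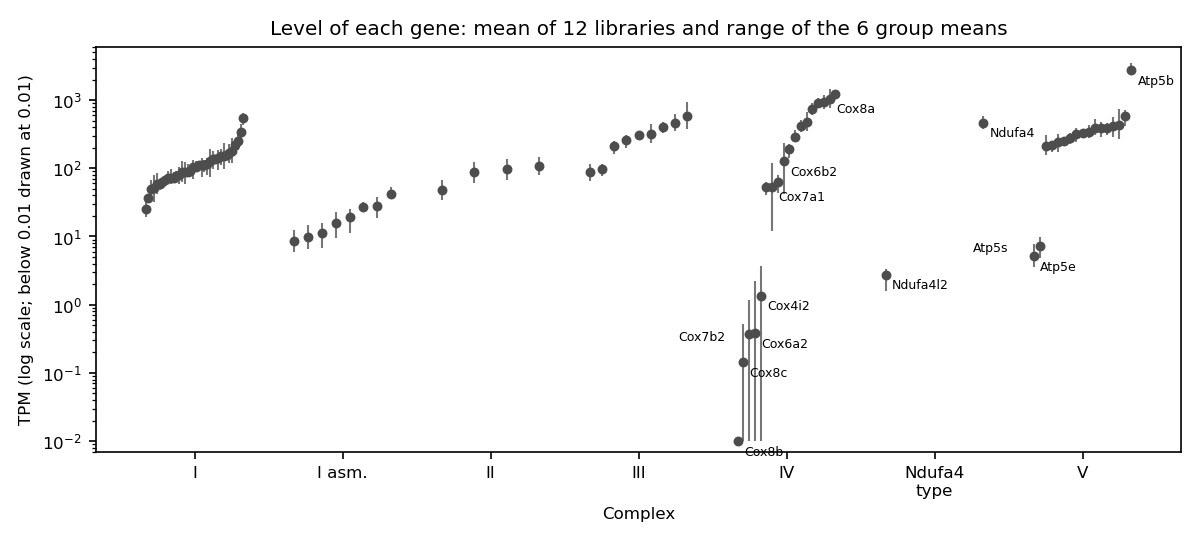
Mean TPM of each nuclear respiratory chain gene over the 12 libraries, by complex, on a log axis. Points are genes, lines span the lowest to the highest of the 6 group means, and values under 0.01 TPM are drawn at 0.01. Complex V and III genes sit highest, with medians of 334 and 310 TPM, and complex I assembly genes lowest.

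Most tissue-restricted isoforms were at or near 0. Cox8b had 0 counts in every library, Cox8c at most 3 and Cox7b2 at most 11, and these 3 genes did not enter the tests, leaving 91 members. Cox4i1 made up between 99.6% and 100% of the TPM of the Cox4i pair over the 6 group means, and Ndufa4 between 99.1% and 99.6% of the pair with Ndufa4l2. The exceptions among complex IV isoforms were Cox6b2, known from testis, and Cox7a1, known from heart and skeletal muscle, which are described with the comparisons.

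With JQ1 in GSK3 knockout cells, 33 of the 91 tested members rose and 1 fell against DMSO, where 14.6% of all 16987 genes tested rose and 19.5% fell. A gene passed when edgeR's quasi-likelihood test gave a two-sided Benjamini-Hochberg adjusted p under 0.05 over all genes. The median log2 fold change was 0.29 over the members and -0.06 over all genes. By complex the genes that rose were 14 of 36 in complex I, 1 of 8 assembly genes, all 4 in complex II, 2 of 9 in complex III, 2 of 15 tested in complex IV, Ndufa4, and 9 of 17 Atp5 genes. In bulk RNA, a change in the number of cells of a type and a change in RNA per cell cannot be told apart.

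Cox6b2 (ENSMUSG00000051811.14, chr7:4751792-4753094, GRCm38), an isoform of the complex IV subunit that faces the intermembrane space, stood at 35.8 and 31.4 CPM with JQ1, against 13.8 and 12.1 CPM with DMSO in knockout cells. Its log2 fold change was 1.38 ± 0.26 (SE, adjusted p = 0.0016). Both JQ1 libraries lay well above both DMSO libraries. Its TPM share of the Cox6b pair was 26.8% ± 2.68 with JQ1 and 12.3% ± 2.1 with DMSO (SD, n = 2), while Cox6b1, the ubiquitous isoform, stood at 124 and 129 CPM with JQ1 against 120 and 135 CPM with DMSO, which overlapped.

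In complex I the accessory subunit Ndufv3 (ENSMUSG00000024038.16, chr17:31520115-31531331), part of the module that oxidises NADH, stood at 51.2 and 58.1 CPM with JQ1, against 31.0 and 32.1 CPM with DMSO, a log2 fold change of 0.79 ± 0.14 (adjusted p = 0.00115). Ndufb10, an accessory subunit of the membrane arm, stood at 44.7 and 55.7 CPM with JQ1, against 27.8 and 32.0 CPM with DMSO (0.75 ± 0.15, adjusted p = 0.00228). Ndufc1, another small membrane-arm subunit, stood at 26.5 and 30.1 CPM, against 15.8 and 18.1 CPM (0.74 ± 0.18, adjusted p = 0.00852). None of these groups overlapped. Ndufa2, of the matrix arm, stood at 26.9 and 32.4 CPM with JQ1, against 16.7 and 19.3 CPM with DMSO (0.72 ± 0.17, adjusted p = 0.00727). It overlaps Tmco6 on the other strand, and the strand setting of the counting is not given in the sources used here. Ndufa12, whose counts were shared with near-identical sequence by the authors' counter, had a log2 fold change of 0.70. The core subunits Ndufs1 and Ndufs7, which carry iron-sulphur clusters, rose by 0.26 and 0.47 on the log2 scale, and the core subunit Ndufs3 by 0.39. Ndufs1 overlaps the more abundant Eef1b2 on the other strand. The other complex I members that rose were Ndufa3, Ndufa10, Ndufa11, Ndufab1, the mitochondrial acyl carrier protein, Ndufb2 and Ndufb7, between 0.30 and 0.63 on the log2 scale.

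Complex II was the complex in which every gene passed. Sdha (chr13:74322254-74350280), the subunit that oxidises succinate, stood at 282 and 297 CPM with JQ1, against 180 and 188 CPM with DMSO, a log2 fold change of 0.65 ± 0.10 (adjusted p = 0.000441). Sdhb, the iron-sulphur subunit, stood at 67.9 and 74.2 CPM with JQ1, against 45.4 and 53.4 CPM with DMSO (0.52 ± 0.12). The anchors Sdhc (0.64 ± 0.15) and Sdhd (0.40 ± 0.13) rose with them. The 4 genes share 1 enzyme but lie at separate loci. With the first knockout DMSO library left out, 1 of the 4 still passed, and with each other knockout library left out, 2 or 3 did.

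In complex V, 8 of the 9 genes that rose encode subunits of the catalytic head and the stalks and 1 a subunit of the rotor ring. Atp5a1, the alpha subunit, stood at 1350 and 1380 CPM with JQ1, against 887 and 924 CPM with DMSO (0.60 ± 0.10, adjusted p = 0.000591). Atp5b, the beta subunit, stood at 1750 and 1800 CPM, against 1380 and 1510 CPM (0.30 ± 0.10, adjusted p = 0.0342). Atp5c1, Atp5d, Atp5f1, Atp5h, Atp5j and Atp5o, subunits of the central and peripheral stalks, lay between 0.42 and 0.61 on the log2 scale. Of the 3 genes for the c subunit of the rotor ring, which encode the same mature protein, only Atp5g3 passed, at 216 and 239 CPM with JQ1 against 141 and 173 CPM with DMSO (0.54 ± 0.18, adjusted p = 0.0366). Atp5g1 stood at 130 and 146 CPM with JQ1, against 122 and 146 CPM with DMSO, and Atp5g2 at 142 and 154 CPM against 116 and 136 CPM. Whether the c-subunit genes differed from each other in their response was not tested.

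In complex III the core protein Uqcrc2 (0.29) and Uqcrfs1 (0.38) rose. In complex IV, beside Cox6b2, only Cox7a2l rose (0.63 ± 0.15, adjusted p = 0.00623), a Cox7a relative that joins complexes III and IV. The main nuclear subunits of complex IV had no call, and the median log2 fold change of the complex was -0.02. Cox4i1, its largest nuclear subunit, stood at 431 and 442 CPM with JQ1, against 411 and 475 CPM with DMSO, and Cox7c at 196 and 222 CPM against 205 and 255 CPM. The 1 member that fell was Cox4i2, at 12 and 8 counts with JQ1 against 32 and 24 counts with DMSO, which is near the detection limit.

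Members rose in knockout cells in each length class. Of the 39 members up to 700 bases long 10 rose, with a median of 0.26, beside 16.5% and 0.19 for all genes of that length. Of the 24 between 700 and 1000 bases 7 rose, with a median of 0.25, beside 20.7% and 0.19, so the shorter members lay close to genes of their length. Of the 22 between 1000 and 2000 bases 11 rose, with a median of 0.34, beside 19.6% and 0.06. Of the 6 longer than 2000 bases 5 rose, with a median of 0.43, beside 11.7% and -0.15 for all such genes. With the authors' effective lengths as an offset, an alternative chosen after seeing the data, 27 members rose. The count rested on which libraries entered: it was 8 without the first knockout DMSO library, 10 and 18 without the second or the first knockout JQ1 library, and 25 without the second knockout DMSO library. Complex I had between 4 and 10 calls over these 4 fits and complex V between 2 and 8. Each such fit leaves 1 library in its group, assumed to vary like the other groups.

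**Figure D2:**
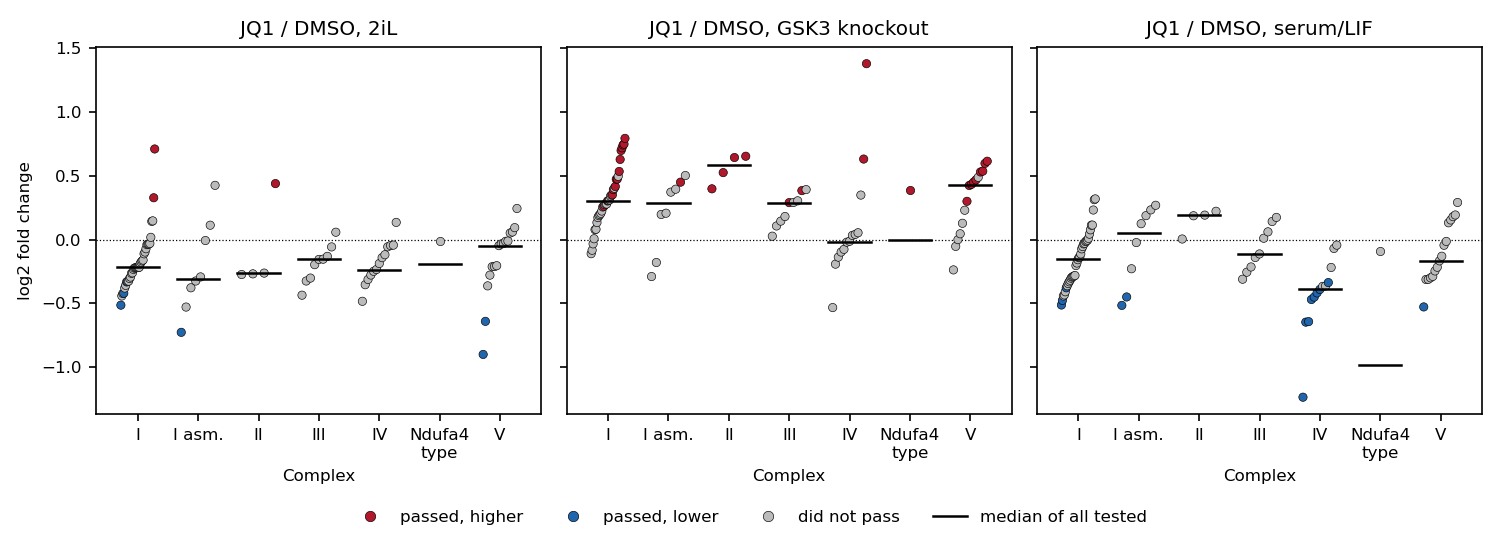
Log2 fold change of each drawn member with JQ1 over DMSO, by complex, in 2iL, GSK3 knockout and serum/LIF cells. Red points passed as higher, blue as lower and grey had no call. Each line is the median of the tested members of that complex. In the knockout panel 33 members passed as higher, all 4 of complex II among them, in the serum/LIF panel 14 passed as lower, 8 of them in complex IV, and most points of each panel are grey. The 4 tested members under 5 CPM in every group are not drawn.

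With JQ1 in 2iL, 3 of 91 members rose and 7 fell against DMSO, where 11.2% of all genes rose and 17.3% fell. The median log2 fold change was -0.21 over the members and -0.06 over all genes. Ndufv3 stood at 62.8 and 64.0 CPM with JQ1, against 41.0 and 36.6 CPM with DMSO (0.71 ± 0.14, adjusted p = 0.00253). Sdha stood at 289 and 296 CPM with JQ1, against 215 and 217 CPM with DMSO (0.44 ± 0.10, adjusted p = 0.0063), and Ndufa12 at 89.3 and 85.3 CPM against 74.1 and 65.1 CPM (0.33 ± 0.11, adjusted p = 0.0384). These 3 genes were the ones that also rose with JQ1 in knockout cells. By length, the median was -0.13 for the 39 members up to 700 bases beside -0.23 for all such genes, and -0.27 for the 22 between 1000 and 2000 bases beside -0.17. The other complex II genes had no call: Sdhb stood at 71.9 and 69.8 CPM with JQ1, against 89.0 and 81.0 CPM with DMSO.

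Among members that fell in 2iL, Ndufaf4 (chr4:24898083-24905001), a complex I assembly factor, stood at 21.4 and 25.7 CPM with JQ1, against 40.9 and 37.2 CPM with DMSO (-0.73 ± 0.12, adjusted p = 0.00111). Atp5g1 (chr11:96068852-96075670) stood at 143 and 136 CPM with JQ1, against 247 and 187 CPM with DMSO (-0.64 ± 0.15, adjusted p = 0.00691), and the 2 DMSO libraries stood further from each other than the lower one stood from either JQ1 library. Ndufa5 stood at 16.9 and 19.4 CPM, against 25.9 and 26.1 CPM (-0.51 ± 0.15, adjusted p = 0.025), and Ndufa13 at 48.8 and 53.0 CPM, against 69.0 and 67.4 CPM (-0.42 ± 0.11, adjusted p = 0.0109). Both encode accessory subunits of complex I. Atp5s, which is no synthase subunit, was low throughout, at 3.53 and 3.06 CPM with JQ1 against 6.70 and 5.57 CPM with DMSO (-0.90 ± 0.24, adjusted p = 0.0145). Ndufv1, the subunit that binds NADH, also fell (-0.33). Cox6a2, the muscle isoform, had 0 counts in both JQ1 libraries and 17 and 13 counts in the DMSO libraries, at least 4.60-fold lower when each JQ1 library is given 3 counts. The number that fell changed with each library left out: it was 1 and 20 without the first or second DMSO library, and 3 and 2 without the first or second JQ1 library.

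With JQ1 in serum/LIF, no member rose and 14 of 91 (15.4%) fell against DMSO in edgeR's quasi-likelihood test, where 8.54% of all genes rose and 12.8% fell, so the share that fell was near that of genes at large. At an unadjusted p under 0.05, 3 members were higher and 25 lower, where 15.4% of all genes were higher and 19.3% lower. The median log2 fold change was -0.16 over the members and -0.02 over all genes. Of the 14, 8 belonged to complex IV, whose median was -0.39 over 15 tested genes, 3 to complex I, 2 to its assembly genes and 1 to complex V. No gene of complexes II and III passed, and the median of complex II was 0.19.

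Cox7c, a small structural subunit of complex IV, stood at 119 and 165 CPM with JQ1, against 183 and 263 CPM with DMSO (-0.65 ± 0.18, adjusted p = 0.0242). Cox7a2 stood at 11.3 and 14.3 CPM with JQ1, against 18.9 and 21.1 CPM with DMSO (-0.64 ± 0.19, adjusted p = 0.0308). Cox5b, Cox6a1, Cox6b1, Cox7b and Cox8a lay between -0.47 and -0.34 on the log2 scale. In most of these genes the first JQ1 library was the lower one, and over all members that library lay at a median of 0.43 log2 units below their mean over the 12 libraries, the second 0.13 below. Cox7a1, at 0.652 and 1.16 CPM with JQ1 against 1.83 and 2.51 CPM with DMSO, also fell (-1.24 ± 0.32) at a low level. Atp5g1 stood at 71.9 and 91.9 CPM with JQ1, against 117 and 120 CPM with DMSO (-0.53 ± 0.15, adjusted p = 0.0253). Ndufaf4 stood at 37.1 and 40.8 CPM, against 56.1 and 55.2 CPM (-0.52 ± 0.12, adjusted p = 0.0102), and Ndufa1, a small membrane-arm subunit, at 11.9 and 13.5 CPM, against 16.6 and 19.6 CPM (-0.51 ± 0.15, adjusted p = 0.03). In all genes of this paragraph given with library values, the groups did not overlap.

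The number of members that fell changed with the libraries entered. Without the first JQ1 library 0 members fell, without the second 24, and without the first or second DMSO library 5 or 1. Complex IV had 0 calls without the first JQ1 library or without the second DMSO library, and 3 without the first DMSO library. Among the 39 members up to 700 bases the median was -0.29 and 9 fell, beside -0.23 and 13.3% of all genes of that length, while the 22 members between 1000 and 2000 bases had a median of -0.001 beside -0.07. With effective lengths as an offset 5 members fell, 3 of them in complex IV, and 1 rose.

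Over the 3 JQ1 comparisons no member passed in all 3 in either direction. Ndufa12, Ndufv3 and Sdha rose in knockout and 2iL cells, and Atp5g1, Ndufa13, Ndufa5 and Ndufaf4 fell in 2iL and in unmodified serum/LIF cells. A further 30 members rose in 1 comparison, 14 fell in 1, and 40 had no call. No member rose in 1 comparison and fell in another. How many of all genes showed each pattern was not counted, so these counts do not set the members apart.

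**Figure D3:**
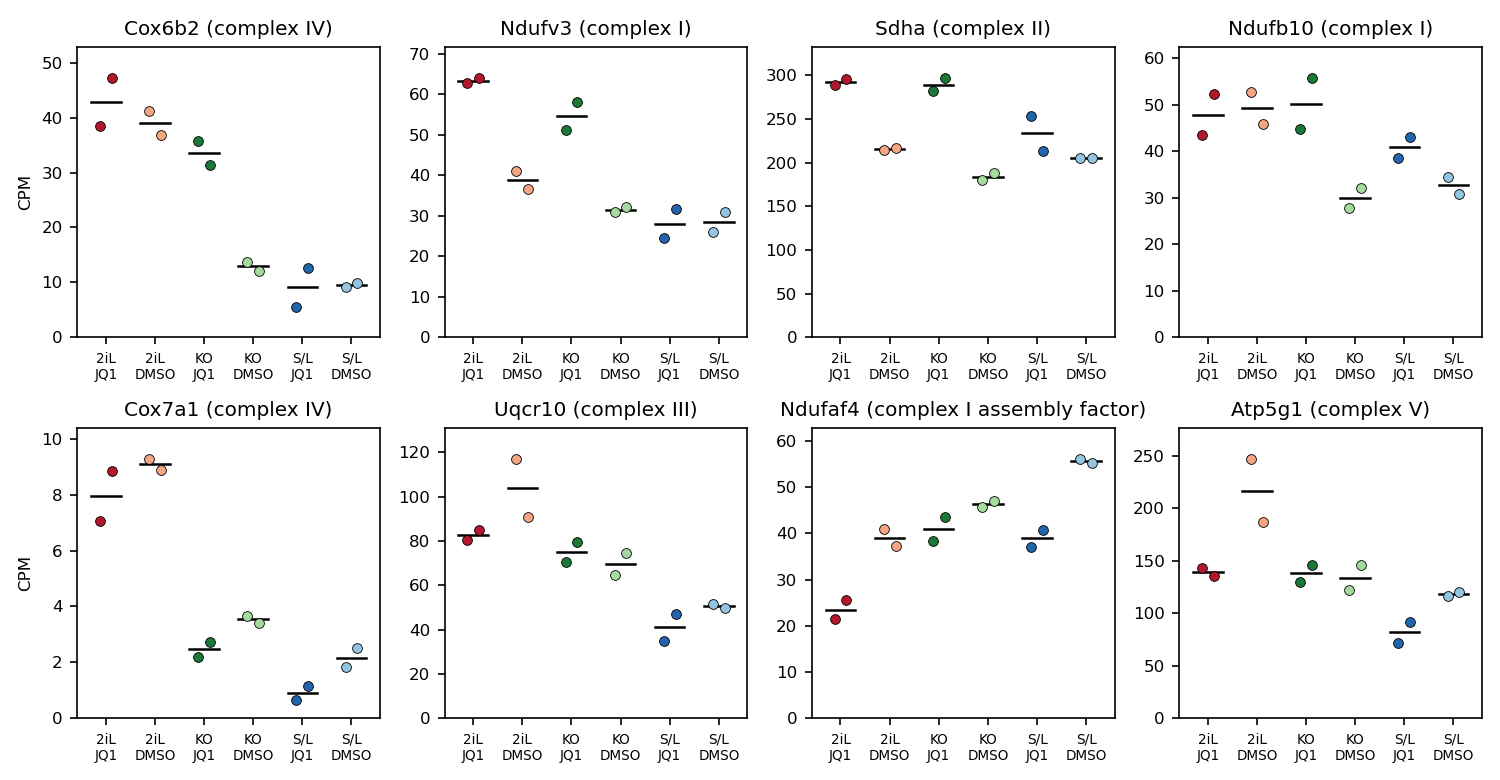
CPM in each library of 8 members, with the groups 2iL JQ1, 2iL DMSO, knockout JQ1, knockout DMSO, serum/LIF JQ1 and serum/LIF DMSO side by side. Dots are libraries and lines are means of 2. Cox6b2 stands at 35.8 and 31.4 CPM in knockout cells with JQ1 against 13.8 and 12.1 CPM with DMSO, and Cox7a1 is highest in the 2iL groups.

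Whether the JQ1 response differed between knockout and unmodified cells in serum/LIF was tested as an interaction. The response was more positive in the knockout for 4 of 91 members and more negative for none, where 1.25% of all genes passed as more positive and 3.12% as more negative. These were Cox6b2 (difference of log2 fold changes 1.45 ± 0.37, adjusted p = 0.0457), Ndufa2 (1.01 ± 0.24, adjusted p = 0.0359), Atp5j, the peripheral stalk subunit F6 (0.83 ± 0.20, adjusted p = 0.0317), and Ndufv3 (0.81 ± 0.20, adjusted p = 0.0388). Atp5j stood at 135 and 148 CPM with JQ1 against 84.9 and 100 CPM with DMSO in knockout cells, and at 57.6 and 78.0 CPM against 75.9 and 81.8 CPM in unmodified cells. It overlaps Gabpa on the other strand. The difference was above 0 for 88 of 91 members, 42 of them at an unadjusted p under 0.05 (9.3% of all genes), with a median of 0.41 over the members and -0.02 over all genes. How many of all genes lay above 0 was not counted. All members were measured in the same libraries, so their directions are not independent of each other.

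Genes up to 700 bases long had a median difference of 0.47 and the 39 members of that length 0.49, whereas the 6 members over 2000 bases had 0.37 beside -0.15 for all such genes. With effective lengths as an offset only Atp5j passed (0.94, adjusted p = 0.0361), and Cox6b2 did not (1.38, adjusted p = 0.0797). The count was 29 without the second unmodified JQ1 library and 0 or 1 without any other library.

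The JQ1 response in 2iL did not pass as different from that in serum/LIF for any member: edgeR's test called 0 of 91 in either direction, where 1.35% of all genes passed as more positive and 2.8% as more negative. At an unadjusted p under 0.05, 4 were more positive and 7 more negative, where 6.63% and 10.7% of all genes were, and DESeq2 called 1 as more positive. The median difference was 0.01 over the members and -0.05 over all genes, and 0.08 over the 39 members up to 700 bases beside 0.06 for all genes of that length. Both interactions use the serum/LIF libraries of unmodified cells, as do the comparisons without JQ1 below, so their results are not independent of each other.

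Without JQ1, members were mostly higher in 2iL than in serum/LIF. In unmodified cells with DMSO, 50 of 91 members passed as higher in 2iL and 3 as lower, where 28.3% of all genes were higher and 26.5% lower. The median log2 fold change was 0.35 over the members and 0.04 over all genes. By complex the higher genes were 20 of 36 in complex I, 5 of 8 assembly genes, 3 of 4 in complex II, 7 of 9 in complex III, 6 of 15 tested in complex IV and 9 of 17 Atp5 genes.

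The largest differences were in complex IV isoforms. Cox7a1 (ENSMUSG00000074218.3, chr7:30184144-30186078) stood at 9.27 and 8.89 CPM in 2iL, against 1.83 and 2.51 CPM in serum/LIF (2.09 ± 0.27, adjusted p = 2.29e-05). Cox6b2 stood at 41.3 and 36.9 CPM in 2iL, against 9.08 and 9.98 CPM in serum/LIF (2.04 ± 0.26, adjusted p = 2.3e-05). Neither group came near the other. In TPM, Cox7a1 made up 45.9% ± 4.21 of the sum of Cox7a1, Cox7a2 and Cox7a2l in 2iL, against 18.2% ± 2.1 in serum/LIF (SD, n = 2), and Cox6b2 made up 29.7% ± 1.2 of the Cox6b pair, against 9.93% ± 0.412. The Cox7a share depends on the transcript lengths that TPM allows for. In CPM, Cox7a1 was the lowest of the 3 in 2iL with DMSO, with means of 9.08 for Cox7a1, 23.0 for Cox7a2 and 41.2 for Cox7a2l. Cox7a2, the Cox7a isoform of most tissues, stood at 26.7 and 19.2 CPM in 2iL, against 18.9 and 21.1 CPM in serum/LIF, which overlapped. Cox6a2 had 17 and 13 counts in 2iL and 0 in both serum/LIF libraries, at least 6.41-fold higher, and Cox4i2 had 2 and 2 counts in 2iL, against 29 and 16 in serum/LIF. Of 6 muscle markers 4 were tested, and 1 was higher and 3 lower in 2iL.

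In complex III, Uqcr10 (chr11:4701973-4704342) stood at 117 and 90.8 CPM in 2iL, against 51.8 and 49.9 CPM in serum/LIF (1.03 ± 0.15, adjusted p = 8.69e-05). Uqcrfs1 (0.62), Uqcrq (0.73), Uqcrb (0.50) and Uqcrc2 (0.42) were higher with it. In complex II the anchors Sdhc (0.88 ± 0.15) and Sdhd (0.85 ± 0.13) and the iron-sulphur subunit Sdhb (0.71 ± 0.12) were higher, while Sdha, at 215 and 217 CPM in 2iL against 205 and 205 CPM in serum/LIF, had no call. In complex I, Ndufb5 stood at 82.3 and 72.6 CPM in 2iL, against 39.4 and 44.7 CPM in serum/LIF (0.88 ± 0.14, adjusted p = 0.000162). It overlaps Mrpl47 on the other strand. The core subunits Ndufv2 (0.71), Ndufs8 (0.69) and Ndufs7 (0.62) were higher too. Ndufaf5, known in human cells to modify the Ndufs7 protein during assembly, stood at 13 and 9.90 CPM in 2iL, against 5.93 and 4.96 CPM in serum/LIF (1.06 ± 0.24, adjusted p = 0.0023).

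In contrast, Ndufaf4 stood at 40.9 and 37.2 CPM in 2iL, against 56.1 and 55.2 CPM in serum/LIF (-0.51 ± 0.12, adjusted p = 0.00309), and Ndufa1 at 14.4 and 13 CPM, against 16.6 and 19.6 CPM (-0.40 ± 0.15, adjusted p = 0.0381). The 3 genes lower in 2iL were these and Cox4i2. In complex V, Atp5g1 had the largest called difference (0.88), and Atp5a1 (0.49) and Atp5b (0.40) were higher. With the first 2iL DMSO library left out 23 members were higher, and 48 with effective lengths as an offset. Of the 39 members up to 700 bases 17 were higher, with a median of 0.28, beside 24.7% and 0.23 for all genes of that length. Of the 24 between 700 and 1000 bases 11 were higher, with a median of 0.29, beside 28.8% and 0.21. The gap was wider for the 22 between 1000 and 2000 bases, of which 18 were higher, with a median of 0.45 beside 29.5% and 0.10. All 11 tested fibroblast markers were lower in 2iL, with summed levels of 1712 and 2185 CPM in 2iL against 4045 and 3736 CPM in serum/LIF. The sums speak for the most abundant markers. The median over the 12 markers was 0.24 and 0.175 TPM in 2iL, against 9.55 and 8.36 TPM in serum/LIF. Of the 12 markers 4 and 5 were at 0 in the 2iL libraries and none in serum/LIF. Of the 9 ES cell markers 6 were higher and 2 lower in 2iL, with summed levels of 4891 and 4424 CPM in 2iL against 2139 and 2706 CPM in serum/LIF. The part of either list in the result was not tested.

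**Figure D4:**
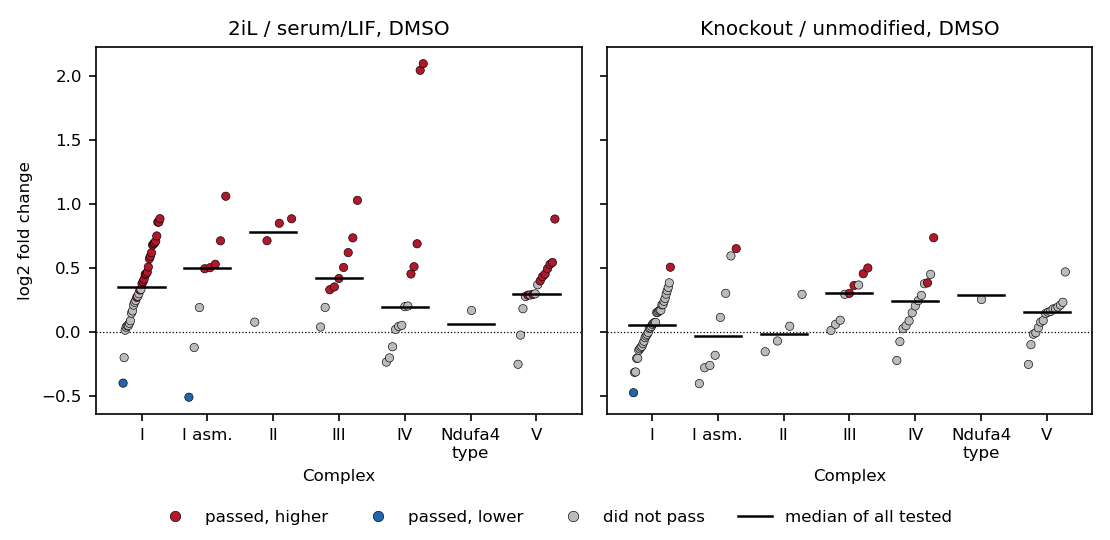
Log2 fold change of each drawn member without JQ1, by complex, for 2iL over serum/LIF and for knockout over unmodified cells in serum/LIF, all with DMSO. Red points passed as higher, blue as lower and grey had no call. Each line is the median of the tested members of that complex. Of 91 tested members 50 passed as higher in 2iL, against 8 in the knockout. The 4 tested members under 5 CPM in every group are not drawn. Among them are Cox6a2, called higher in 2iL, and Cox4i2, called lower there.

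In GSK3 knockout cells with DMSO, 8 of 91 members (8.79%) were higher than in unmodified cells with DMSO and 1 was lower, where 18.9% of all genes were higher and 21% lower. The median log2 fold change was 0.14 over the members and 0.01 over all genes. Of the 8, 4 were in complex III. The core protein Uqcrc1 (chr9:108936633-108949623) stood at 351 and 359 CPM in knockout cells, against 260 and 243 CPM in unmodified cells (0.50 ± 0.11, adjusted p = 0.00275). Uqcr10 stood at 64.7 and 74.7 CPM, against 51.8 and 49.9 CPM (0.45 ± 0.15, adjusted p = 0.0307), and Cyc1 (0.36) and Uqcrc2 (0.30) were higher too. With TMM replaced by another scaling 1 of these 4 passed. The assembly factor Ndufaf1 stood at 16.7 and 18.8 CPM in knockout cells, against 10.9 and 11.7 CPM in unmodified cells (0.65 ± 0.14, adjusted p = 0.00317).

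The others were Ndufb4, at 30.8 and 36.7 CPM in knockout cells against 22.8 and 24.8 CPM in unmodified cells (0.51 ± 0.15, adjusted p = 0.0175), whose counts were shared with other loci in every library, Cox7b, at 132 and 152 CPM against 101 and 118 CPM (0.38 ± 0.12, adjusted p = 0.0251), and Cox7a1 (0.74, low). Ndufa2 was lower, at 16.7 and 19.3 CPM in knockout cells against 25.2 and 24.7 CPM in unmodified cells (-0.47 ± 0.17, adjusted p = 0.0438). Cox6b2 had 13.8 and 12.1 CPM in knockout cells against 9.08 and 9.98 CPM in unmodified cells, with no call, beside the 41.3 and 36.9 CPM of 2iL cells with DMSO. Of the 11 tested fibroblast markers 8 were lower and 1, Pdgfra, higher in knockout cells, with summed levels of 3199 and 2993 CPM in knockout cells against 4045 and 3736 CPM in unmodified cells. The median over the 12 markers was 3.75 and 3.12 TPM in knockout cells, against 9.55 and 8.36 TPM in unmodified cells. Of the 9 ES cell markers 6 were higher and none lower, with summed levels of 3774 and 4190 CPM in knockout cells against 2139 and 2706 CPM in unmodified cells. The part of either list in the result was not tested. By length, the 39 members up to 700 bases had a median of 0.09 beside 0.01 for all such genes, and the 24 between 700 and 1000 bases 0.17 beside 0.03. The 22 between 1000 and 2000 bases had a median of 0.19 beside 0.0, and 4 of the 8 higher members were among them. The 6 longer than 2000 bases had a median of -0.06 beside 0.01, and none of them passed. The 8 higher members were 2 without the second knockout DMSO library and 3 without the first unmodified DMSO library.

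The summed CPM of the 94 genes set these changes together. It was 11341 and 11884 in knockout cells with JQ1, against 8971 and 9986 with DMSO. In 2iL it was 10025 and 10258 with JQ1, against 11662 and 10198 with DMSO, and in serum/LIF 7464 and 8788 with JQ1, against 8586 and 8785 with DMSO. Only in the knockout did the JQ1 libraries both lie above both DMSO libraries. Since Atp5b and Atp5a1 hold much of each sum, it speaks for the abundant genes.

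The 13 subunits encoded in mitochondrial DNA fell or had no call with JQ1 in every culture. In knockout cells 4 of the 13 (30.8%) fell and none rose with JQ1, with a median of -0.39, where 19.5% of all genes fell. The summed level of the 13 was 66991 and 79731 CPM with JQ1, against 98857 and 104958 CPM with DMSO. In 2iL 4 (30.8%) fell with JQ1, with a median of -0.34, where 17.3% of all genes fell. In serum/LIF 12 (92.3%) fell with JQ1, with a median of -0.65, where 12.8% of all genes fell. With DMSO 12 (92.3%) were lower in 2iL than in serum/LIF, with a median of -0.91, where 26.5% of all genes were lower. With mitochondrially encoded counts left out of the library sizes, 1 nuclear member passed as higher with JQ1 in serum/LIF, and every other count of members stayed within 1.5 times.

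**Figure D5:**
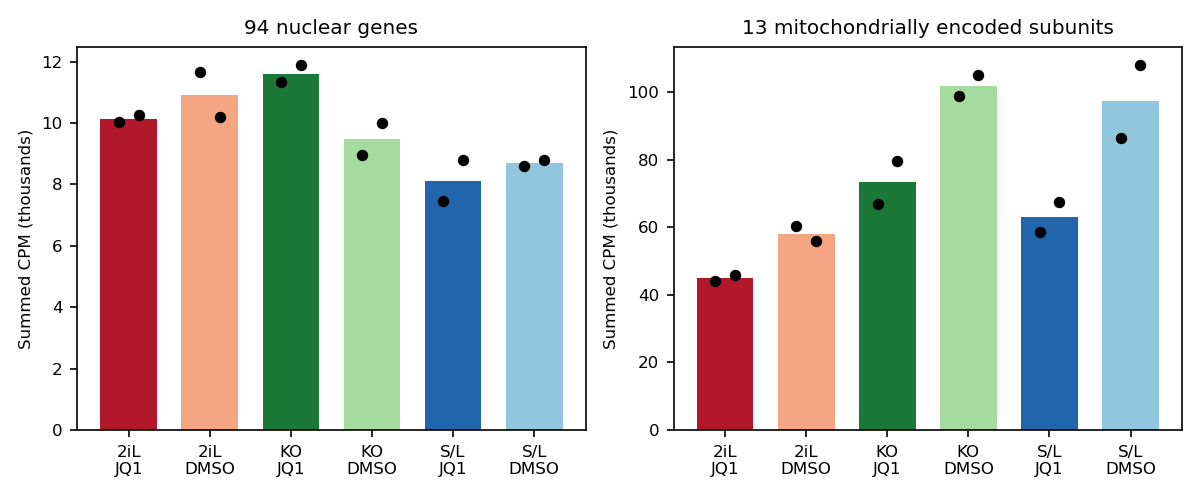
Summed CPM (axis in kilo-CPM) of the 94 nuclear respiratory chain genes and of the 13 subunits encoded in mitochondrial DNA, with bars at the mean of 2 libraries and dots for the libraries. With JQ1 in knockout cells the nuclear sum is higher (11341 and 11884 CPM against 8971 and 9986) and the mitochondrial sum lower.

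Other genes of mitochondrial respiration were counted by lists. With JQ1, 14.6% of all genes rose and 19.5% fell in knockout cells, 11.2% rose and 17.3% fell in 2iL, and 8.54% rose and 12.8% fell in serum/LIF. Of 41 tested assembly factors outside the Ndufaf genes, 10 (24.4%) rose and 1 fell with JQ1 in knockout cells (median 0.23), 2 rose and 5 (12.2%) fell in 2iL, and 1 rose and 1 fell in serum/LIF, while 20 (48.8%) were higher in 2iL than in serum/LIF with DMSO, beside 28.3% of all genes. Of 78 mitochondrial ribosome genes, 21 (26.9%) rose and 1 fell with JQ1 in knockout cells (median 0.26), 11 (14.1%) fell in 2iL and 1 in serum/LIF, and 34 (43.6%) were higher and 1 lower in 2iL with DMSO. Of 22 genes for electron carriers and carriers of ADP, 11 (50%) rose and 1 fell with JQ1 in knockout cells. With JQ1 in 2iL 2 (9.09%) rose and 1 fell, and in serum/LIF 3 (13.6%) rose and 1 fell. With DMSO 13 (59.1%) were higher and 1 lower in 2iL than in serum/LIF. Among the 22 genes Slc25a4, the ADP/ATP carrier of heart and muscle, averaged 819 CPM with JQ1 and 166 CPM with DMSO in knockout cells (log2 fold change 2.30 ± 0.16, adjusted p = 1.72e-06). Of 18 citrate cycle and pyruvate dehydrogenase genes, 4 rose with JQ1 in knockout cells and 2 in serum/LIF, and in 2iL 3 rose and 1 fell.

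Regulators of these genes were counted too. Of 14 tested, 3 rose (21.4%) and 4 fell (28.6%) with JQ1 in knockout cells, 2 rose and 2 fell in 2iL (14.3% each), and none passed in serum/LIF. Ppargc1b, a coactivator of mitochondrial biogenesis, fell with JQ1 in knockout cells (-2.23 ± 0.35, adjusted p = 0.000557) and in 2iL (-1.93 ± 0.32, adjusted p = 0.000833), and had -0.44 ± 0.33 in serum/LIF. Tfam, which packages mitochondrial DNA and takes part in its transcription, rose in knockout cells (0.44 ± 0.13, adjusted p = 0.0193), and Gabpa fell there (-0.56, adjusted p = 0.00311). Nrf1 had no call in any comparison.

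Markers of cell types were counted with JQ1 as well. Of 11 tested fibroblast markers 9 fell in knockout cells, with summed levels of 2205 and 1940 CPM with JQ1 against 3199 and 2993 CPM with DMSO, and 10 fell in serum/LIF, with 2554 and 1760 CPM against 4045 and 3736 CPM. In 2iL 1 rose and 3 fell, with 4456 and 3689 CPM with JQ1 against 1712 and 2185 CPM with DMSO, and 3 and 5 of 12 markers were at 0 with JQ1 against 4 and 5 with DMSO. Fn1, which ES cells also express, made up most of these sums, and Dcn, Lum and Postn were at 0 in every 2iL library. Of the 9 ES cell markers none rose and 5 fell with JQ1 in serum/LIF, with summed levels of 1573 and 2308 CPM with JQ1 against 2139 and 2706 CPM with DMSO. In 2iL 2 rose and 1 fell, and in knockout cells 1 rose and 1 fell. Of 4 tested muscle markers none rose and 2 fell in each culture. The part of these lists in the members' results was not tested.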

How the data were processed

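RNA from 12 libraries was made into paired-end libraries with an mRNA kit, per the labels' protocols. The deposited tables hold expected counts per gene and TPM, which the authors estimated with RSEM, per the file headers; besides RSEM, the submitters' processing notes list the mm10 build, STAR 2.5.2, bcl2fastq and DESeq2 1.18.1. The annotation release and strand setting are not given in the sources used here. Identifiers were matched without version to GENCODE mouse M21, which named 52403 of 52550 (99.72%).

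Expected counts were rounded, filtered (filterByExpr, at least 10 counts and 15 in total), scaled by TMM and tested with edgeR 4.0.16 (R 4.3.3) by the quasi-likelihood F test in 1 fit of the 6 groups, with 16987 genes, 6 residual degrees of freedom and Benjamini-Hochberg adjustment at 0.05, two-sided. The common biological coefficient of variation was 0.129. CPM used TMM-scaled library sizes, and fold changes are from the fit. The SE of a log2 fold change was worked back from the test, as its absolute value divided by the square root of F. TPM was used as deposited, only for levels between genes, isoform shares and the median level of fibroblast markers. DESeq2 1.42.0 and other settings were alternatives. The fit was run on simulated counts with the same spread for every gene and changes in 1 group only. They held no differences between libraries tied to transcript length, so that run does not cover such differences. Replicates differed by more than sampling noise (chi-square per gene of 7.94 to 36.4). For 8 members (Atp5g2, Atp5h, Atp5l, Ndufa12, Ndufab1, Ndufb4, Ndufb6 and Uqcrc2) counts were not whole (beyond 0.005) in every library, for 10 in some and for 76 in none; values that are not whole come from reads shared between genes. Library values were given by rule for isoform families and for called members reaching 5 CPM in a group compared. Of those called members, the rule took the 5 that rose most and the 5 that fell most. Others, such as Sdhb, Atp5a1 and Atp5b, were given library values or named after their values were seen. The members and lists were chosen with earlier results of these data known.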

Additional observations from a re-analysis of the deposited data

Results flagged for a closer look

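For 6 genes the test of the difference between JQ1 responses itself passed (edgeR's quasi-likelihood interaction, adjusted p under 0.05 over all genes). Between knockout and unmodified serum/LIF cells the difference in log2 fold change was 1.45 for Cox6b2, 1.01 for Ndufa2, 0.83 for Atp5j and 0.81 for Ndufv3, 4 nuclear respiratory chain genes, and 1.33 for Slc25a4 (± 0.22, adjusted p = 0.00566), the ADP/ATP carrier of heart and muscle. Between 2iL and serum/LIF it was 1.51 ± 0.33 for Pdk1 (adjusted p = 0.0212), the kinase that inhibits pyruvate dehydrogenase, whose JQ1 response was 1.28 ± 0.24 in 2iL and -0.23 ± 0.23 in serum/LIF. Pdk1 averaged 58.0 ± 9.02 CPM with JQ1 and 23.8 ± 5.95 CPM with DMSO in 2iL (SD, n = 2). Each group held 2 libraries, and the 4 calls among respiratory chain genes were lost when most single libraries were left out.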

How the results depend on the processing

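Of 290 checks on the members' counts and medians, 213 kept them within 1.5 times or within the spread between libraries, and 75 moved them. In 2 a median changed sign and moved by more than that spread. A change of sign within the spread was counted as kept. Of 436 checks on 35 named fold changes, 341 kept the call, 95 lost it and 0 changed direction. Ndufv3, Ndufb10 and Cox6b2 (JQ1 in knockout), Ndufv3 and Ndufaf4 (JQ1 in 2iL) and Cox7a1, Cox6b2, Ndufaf5, Uqcr10, Ndufb5 and Ndufaf4 (2iL with DMSO) passed under every alternative run for single genes, as did Uqcrc1 and Ndufaf1 in the knockout with DMSO, and no named result of JQ1 in serum/LIF did. The fold threshold was not among these, and Ndufaf4 in 2iL with DMSO (-0.51) and Uqcrc1 (0.50) lie under it.

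Leaving out 1 library at a time gave these ranges. With JQ1 in serum/LIF 0 to 3 members rose and 0 to 24 fell, with medians of -0.32 to -0.008. In 2iL 1 to 3 rose and 1 to 20 fell (-0.31 to -0.052). In knockout cells 8 to 25 rose and 0 to 1 fell (0.23 to 0.36). In 2iL against serum/LIF 23 to 46 were higher and 2 to 5 lower (0.19 to 0.42), and in knockout against unmodified cells 2 to 6 were higher and 0 lower (0.02 to 0.21). The interaction for 2iL gave 0 to 2 more positive and 0 to 1 more negative, with medians of -0.17 to 0.12, below 0 without the first serum/LIF JQ1 library (-0.17) and without the second 2iL DMSO library (-0.08). The interaction for the knockout gave 0 to 29 more positive, with medians of 0.27 to 0.57.

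With DESeq2's size factors, 3 members were higher and 2 lower in knockout against unmodified cells, and 1 was more positive in the 2iL interaction. With no filter, 12 fell with JQ1 in 2iL, 1 was more positive in the 2iL interaction and 17 in that for the knockout. With genes kept at 1 CPM in 4 libraries, 0 fell with JQ1 in knockout cells. With a log2 change of at least 0.58 also required, JQ1 gave 3 lower in serum/LIF, 1 higher and 4 lower in 2iL and 12 higher in knockout cells; 23 were higher and 1 lower in 2iL, and 2 higher and 0 lower in the knockout. In fits of only the libraries compared, 1 fell with JQ1 in serum/LIF, 33 were higher in 2iL and 2 were more positive in the knockout interaction. Without mitochondrially encoded counts in the library sizes, 1 rose with JQ1 in serum/LIF. With effective lengths as an offset, chosen after seeing the data, 1 rose and 5 fell with JQ1 in serum/LIF and 1 was more positive in the knockout interaction. DESeq2 gave 0 lower with JQ1 in knockout cells, 3 higher in the knockout with DMSO (median 0.053), and 1 and 17 more positive in the interactions for 2iL and the knockout. Fits of only the libraries compared rest on fewer samples; for the other settings the cause was not tested.

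Replicate numbers are shared by the groups, but the labels do not say that a number marks a shared batch. Correlations of replicate 1 minus replicate 2 lay between -0.19 and 0.18 over all pairs of groups, and between the JQ1 and DMSO groups of a culture they were 0.18 in serum/LIF, 0.12 in 2iL and 0.12 in the knockout, with only 2 numbers a group, so the numbers were not taken to pair the libraries. With the replicate number as a block, 13 members fell with JQ1 in 2iL, 1 was more positive in the 2iL interaction and 8 in the knockout interaction. With 2 libraries a group small changes could not be detected: the smallest log2 change called with JQ1 was 0.26 in knockout cells (Ndufs1) and -0.34 in serum/LIF (Cox6a1).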
